A study of Mus musculus with 45 samples.

Results

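The 5 somatostatin receptor genes (Sstr1 to Sstr5) and the 5 muscarinic acetylcholine receptor genes (Chrm1 to Chrm5) were examined in RNA sequencing libraries of mouse hippocampal neurons. These 10 genes were chosen by their symbols out of 54532 genes in the count table, and the choice rested on values measured in the same libraries: Sstr1 and Chrm4 had been selected because their levels fall when NMDA is applied, and the other 8 are their paralogs. For Sstr1 and Chrm4, the values with NMDA are therefore given as a description without a test. The neurons came from newborn C57BL/6N mice and were treated with AraC after plating to limit glial growth. By the sample labels, the neurons were used on day 10 or 11 in vitro. The sequencing methods name only the later of these days. All 45 libraries carry the same genotype, and each of 5 culture preparations (numbered 1, 3, 6, 7 and 8) gave 1 library to each of 9 conditions. Neurons were left untreated (control) or received bicuculline (Bic, 50 µM), a blocker of GABA type A receptors that releases the network into bursts of AP firing, for 0.5, 1 or 2 h. In the SP (the short protocol), neurons fired in Bic for 0.5 h and then spent an equal time with tetrodotoxin (TTX, 1 µM), which stops AP firing, without (SP TTX) or with 30 µM NMDA (SP TTX/NMDA). In the LP (the long protocol), both phases took 1 h, and the second was spent with TTX (LP TTX), with TTX and NMDA (LP TTX/NMDA) or with 50 µM TBOA (LP TBOA), a blocker of glutamate uptake. Bic remained in the medium during each of these additions. The passive effect compares TTX with Bic of the same total duration, the active effect compares TTX/NMDA with TTX, the total effect compares TTX/NMDA with Bic, and spillover compares TBOA with 2 h Bic.

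Both families are G protein-coupled receptors. All somatostatin receptors couple to Gi and Go proteins, which lower cAMP and open GIRK potassium channels, and they answer to somatostatin and cortistatin, peptides that are made mostly by interneurons in the hippocampus. Chrm2 and Chrm4 encode the Gi/Go-coupled muscarinic receptors M2 and M4, whereas Chrm1, Chrm3 and Chrm5 encode M1, M3 and M5, which couple to Gq proteins and phospholipase C and close KCNQ (M-current) potassium channels. In the intact hippocampus, acetylcholine arrives mainly with axons from the septum, and M1 is the common muscarinic receptor of pyramidal neurons.

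The promoters of Sstr2 and Chrm4 are shown as examples of genes that were higher after 2 h Bic (below). Chrm4 was also selected for its fall with NMDA. Chrm2 was higher after 2 h Bic as well, and its window is not shown. The Chrm4 start site of RefSeq lies 5060 bases before the exon model described below. Each run holds the 250 bases before a start site in RefSeq (build GRCm38.p6, plus strand, 5′ to 3′). The Sstr2 window lies at chr11:113619077-113619326 and the Chrm4 window at chr2:91921939-91922188. Capitals mark a full cAMP response element, TGACGTCA, the element that CREB binds.
Sstr2: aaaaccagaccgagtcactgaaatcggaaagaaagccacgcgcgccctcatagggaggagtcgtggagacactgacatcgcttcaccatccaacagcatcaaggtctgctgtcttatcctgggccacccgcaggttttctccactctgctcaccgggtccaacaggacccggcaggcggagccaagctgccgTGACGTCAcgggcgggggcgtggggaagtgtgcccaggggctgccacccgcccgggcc
Chrm4: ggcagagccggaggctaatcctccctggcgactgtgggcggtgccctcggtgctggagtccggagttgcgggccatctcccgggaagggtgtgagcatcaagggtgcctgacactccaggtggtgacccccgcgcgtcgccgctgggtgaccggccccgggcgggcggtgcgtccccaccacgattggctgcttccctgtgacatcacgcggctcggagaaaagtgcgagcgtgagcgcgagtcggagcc
The element in Sstr2 starts 58 bases before the start site. Of 32851 RefSeq promoter windows of this length, 1.55% hold the full element on either strand. Promoter windows were at hand for 7 of the 10 receptor genes (8 windows, 2 of them for Sstr3) and not for Sstr1, Sstr5 and Chrm1. Among the 8, the full element was in the Sstr2 window only. Its core TGACG, which the full element contains, was in the Sstr2 window and in 1 of the Sstr3 windows, against 17.8% of all windows. The AP-1 letters TGANTCA were in none of the 8, against 6.75% of all windows. The Sstr2 and Chrm4 windows had a GC content of 63.6% and 70%, against a median of 52.4% over all windows. The Chrm2 window had 50%. A match of letters is a description of the sequence and no evidence of binding.

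Levels between genes were compared per kilobase of exon model, on reads per 1000000 of the TMM-scaled library size (CPM), as CPM per kb, and all other levels are CPM. In the 5 control libraries, Chrm1 had the highest length-scaled level with 25.9 ± 5.36 CPM per kb (SD, n = 5). Sstr1 followed with 17.4 ± 1.87 and Sstr2 with 13.7 ± 3.58 CPM per kb. The ranges of Chrm1 and Sstr1 overlapped, as did those of Sstr1 and Sstr2, so the libraries do not set an order within these neighbouring pairs. Chrm3 (8.55 ± 0.716), Sstr3 (7.51 ± 1.6), Chrm4 (6.82 ± 0.668) and Sstr4 (4.68 ± 1.64 CPM per kb) came next, each overlapping its neighbour, and all 5 Chrm3 values lay below all Sstr2 values. Chrm5 (1.67 ± 0.562) and Chrm2 (1.07 ± 0.211 CPM per kb) overlapped each other and lay below Sstr4. Sstr5, whose receptor is best known from the pituitary and the pancreas, had 32 reads in all 45 libraries together, 25 libraries without a read and at most 3 reads in any library, so it stood at the level that 3 reads set as a floor (0.0389 CPM in the deepest and 0.261 CPM in the shallowest library) and no fold change is given for it. The other 9 genes had at least 8 reads in every library.

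**Figure D1:**
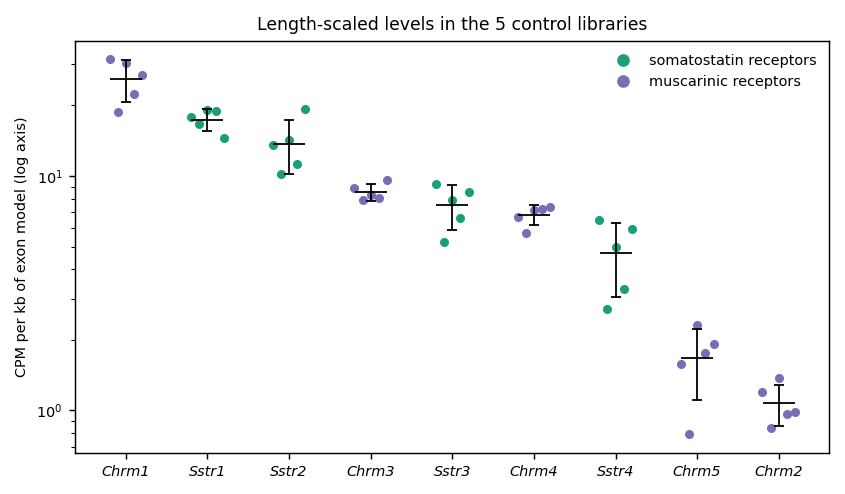
Length-scaled levels (CPM per kb of exon model, log axis) of 9 receptor genes in the 5 control libraries; points are libraries, bars the mean and SD. Chrm1, Sstr1 and Sstr2 are highest and Chrm5 and Chrm2 lowest; Sstr5 (at most 3 reads per library) is not drawn.

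The exon models differ in how much of each transcript they hold, which limits the order above. On GRCm38, Chrm4 (ENSMUSG00000040495, chr2:91927249-91928688, plus strand) and Chrm5 (ENSMUSG00000074939, chr2:112479171-112480769, minus strand) are single-exon models of 1440 and 1599 bases that hold coding sequence alone, and the RefSeq gene extends a further 1147 bases downstream of the Chrm4 model. Sstr1 (ENSMUSG00000035431, chr12:58211772-58214444, plus strand, 2046 exon bases) ends 1593 bases before the RefSeq gene does. Reads from bases outside the models were not counted. The remaining models run from 1424 exon bases for Sstr4 to 6487 for Chrm1, and none of the 10 shares exon bases with another gene on its strand.

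The cultures held the ligand genes of only 1 of the families. Sst, which encodes somatostatin, was at 292 ± 50.9 CPM in the controls and Cort, which encodes cortistatin, at 20.8 ± 4.92 CPM (SD, n = 5). Of the genes that define a cholinergic neuron, Chat (the enzyme that makes acetylcholine) had no read in 40 of 45 libraries, and Slc18a3 (the vesicular transporter) and Slc5a7 (choline uptake) were under 1 CPM in every library. Ache, which encodes the enzyme that breaks acetylcholine down, was at 84.5 ± 16.1 CPM.

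After 2 h Bic, Sstr1, Sstr2, Chrm2 and Chrm4 were higher than in the control and Sstr3 was lower, by the quasi-likelihood test of edgeR, adjusted after Benjamini and Hochberg over all 30929 genes tested. The 4 higher genes of 10 stand against 4.24% of all genes tested, and the 1 lower gene against 4.78%. Over the 13592 genes with a mean of at least 1 CPM the shares were 8.18% and 10.4%. Sstr1 and Chrm4 are among the 4. They were chosen by comparing NMDA with the 1 h Bic, 2 h Bic and TTX libraries. Their tests on these libraries, here and below, are not independent of that choice. Sstr1 rose the most. Its levels were 36.4, 34.1, 39, 38.7 and 29.7 CPM in the controls of preparations 1, 3, 6, 7 and 8 and 110, 136, 124, 106 and 68.7 CPM after 2 h Bic. The lowest Bic library, preparation 8, was still above every control. The fitted log2 fold change was 1.6 ± 0.11 (SE, adjusted p = 3.39e-13), a 3.03-fold level.

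Sstr2 had 29.2, 21.8, 30.6, 24 and 41.5 CPM in the controls and 68.4, 52.8, 72.4, 53.3 and 75.6 CPM after 2 h Bic. The groups did not overlap, and the level was 2.19-fold (log2 1.13 ± 0.12, adjusted p = 7.92e-09). Sstr3, whose receptor is known for sitting in the primary cilium of neurons, went the other way, from 39.95, 22.6, 34.1, 28.6 and 37 CPM to 16.9, 13, 19.3, 17.6 and 22.9 CPM. The highest Bic library (22.9) and the lowest control (22.6) came from different preparations, and within each of the 5 preparations Sstr3 fell (log2 −0.85 ± 0.12, adjusted p = 3.74e-06). Sstr4 was at 6.66 CPM in the control and 5.82 CPM after 2 h Bic and was not called (log2 −0.17 ± 0.18, adjusted p = 0.592).

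Among the muscarinic receptors, both Gi/Go-coupled genes rose. Chrm4 had 9.58, 8.25, 10.3, 10.4 and 10.6 CPM in the controls and 16.4, 13.2, 14.4, 12.9 and 13.3 CPM after 2 h Bic, without overlap (log2 0.50 ± 0.10, adjusted p = 7.94e-04). Chrm2 had 7.22, 5.07, 8.30, 5.82 and 5.99 CPM in the controls and 10.2, 10.3, 10.9, 9.48 and 8.99 CPM after 2 h Bic, also without overlap (log2 0.61 ± 0.12, adjusted p = 5.30e-04). None of the 3 Gq-coupled genes was called. Chrm3 was the closest to 0, with a log2 change of 0.00 ± 0.08 (adjusted p = 0.991). Chrm5 stood at −0.29 ± 0.21 (adjusted p = 0.513) and Chrm1 at −0.18 ± 0.11 (adjusted p = 0.415). With the replicate block, which compares within preparations, Chrm1 was called as lower by log2 −0.16 (adjusted p = 0.0458, from 0.0401 to 0.570 over 11 alternative fits). All 5 calls of the unblocked fit held in each of 11 alternative fits.

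**Figure D2:**
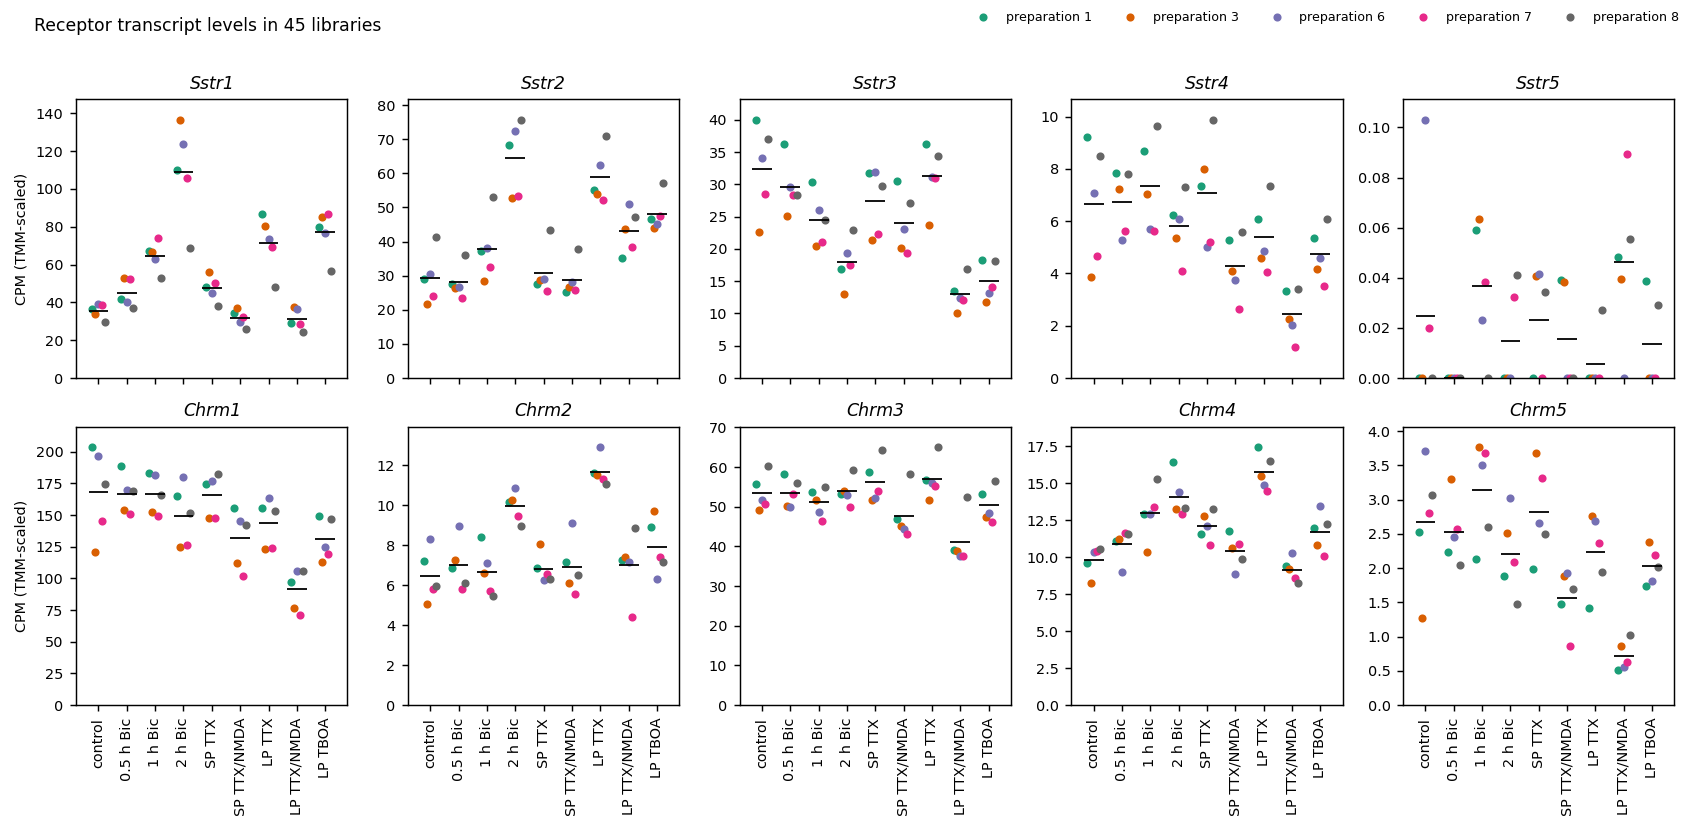
Levels in CPM (linear axis, TMM-scaled) of the 10 receptor genes in 9 conditions; each point is 1 library, coloured by culture preparation, and the line is the mean of 5. Sstr1 climbs from a mean of 35.6 in the control to 109 CPM after 2 h Bic, Sstr3 descends from 32.4 to 17.9 CPM, and the LP TTX/NMDA points lie below the LP TTX mean for each gene but Sstr5.

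The changes came at different times. After 0.5 h Bic none of the 10 genes was called by edgeR or by DESeq2, against 0.289% of 30133 genes called as higher. Sstr1 alone had an unadjusted p-value under 0.05, with 41.8, 52.8, 39.9, 52.5 and 36.9 CPM (log2 0.33 ± 0.10, adjusted p = 0.273), and without preparation 6 it was called (log2 0.41, adjusted p = 0.0299, from 4.19e-03 to 1.00 over the alternatives). After 1 h Bic Sstr1 was called as the only 1 of 10, against 0.965% of all genes as higher, at 67.2, 66.5, 63.1, 73.8 and 52.8 CPM (log2 0.85 ± 0.09, adjusted p = 3.47e-09). Blocking on the replicate added 3 genes after 1 h: Sstr2 (log2 0.37, adjusted p = 1.03e-03), Chrm4 (log2 0.39, adjusted p = 5.82e-03) and, as lower, Sstr3 (log2 −0.40, adjusted p = 2.83e-03). Each of these 3 moved the same way in all 5 preparations. Over the 11 alternatives their adjusted p ranged from 1.96e-05 to 0.611 for Sstr2, from 3.33e-04 to 0.281 for Chrm4 and from 3.10e-06 to 0.302 for Sstr3.

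Between 1 and 2 h Bic, Sstr1 (log2 0.74 ± 0.10, adjusted p = 3.96e-06), Sstr2 (log2 0.77 ± 0.11, adjusted p = 5.70e-06) and Chrm2 (log2 0.57 ± 0.11, adjusted p = 6.66e-04) rose further and Sstr3 fell further (log2 −0.45 ± 0.11, adjusted p = 8.40e-03), against 2.53% of all genes as higher and 2.8% as lower. The call of Sstr3 was lost without preparation 1 (log2 −0.34, adjusted p = 0.112, the alternatives ranging from 7.56e-12 to this value). It was also lost with edgeR's low-count filter (adjusted p = 0.0589) and in a fit over all 45 libraries (adjusted p = 0.0701), both at log2 −0.44. Chrm2 was at 6.66 CPM after 1 h and 6.48 CPM in the control, so its rise lay in the second hour. Chrm4 changed by log2 0.11 ± 0.10 in that hour (adjusted p = 0.592). In the fit with the replicate block, Sstr4, Chrm1 and Chrm5 were called as lower in the second hour as well (adjusted p = 0.0278, 7.57e-03 and 6.93e-03), with log2 changes of −0.30, −0.16 and −0.50.

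The proportions of the paralogs changed too. The log2 ratio of 2 paralogs in a library, with a pseudocount of 1 CPM, was compared between groups by a two-sided exact permutation test for the 16 pairs of genes with a mean of at least 1 CPM in 3 comparisons, 48 tests in all, where 5 against 5 libraries allow no p-value under 0.00794. After 2 h Bic, 9 of the 16 ratios reached this smallest value (Benjamini-Hochberg adjusted p = 0.0346). Sstr1 gained on Sstr3 by 2.37 on the log2 scale, from 0.15 ± 0.37 in the controls to 2.52 ± 0.63 (SD, n = 5), in 5 of 5 preparations. Sstr2 gained on Sstr3 by 1.94, and Sstr1 gained on Sstr4 by 1.69. In the muscarinic family, Chrm1 lost against Chrm2 by log2 −0.72 and against Chrm4 by log2 −0.63, and Chrm3 lost against Chrm4 by log2 −0.46. In the paired form, an exact sign-flip permutation test over the 5 preparations cannot go below p = 0.0625, and none of the 48 ratios was called with it.

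In summed length-scaled level, the somatostatin receptors went from 43.3 ± 5.76 CPM per kb in the controls to 91.6 ± 9.95 after 2 h Bic, and the muscarinic receptors were at 44.1 ± 6.80 and 44.4 ± 4.68 CPM per kb. The share of Sstr1 in its family was 40.8% ± 7.39 in the controls and 57.6% ± 9.49 after 2 h Bic, that of Sstr3 17.2% ± 1.67 and 4.62% ± 1.33. Chrm4 made up 15.7% ± 1.81 of the muscarinic sum in the controls and 22% ± 1.54 after 2 h Bic.

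**Figure D3:**
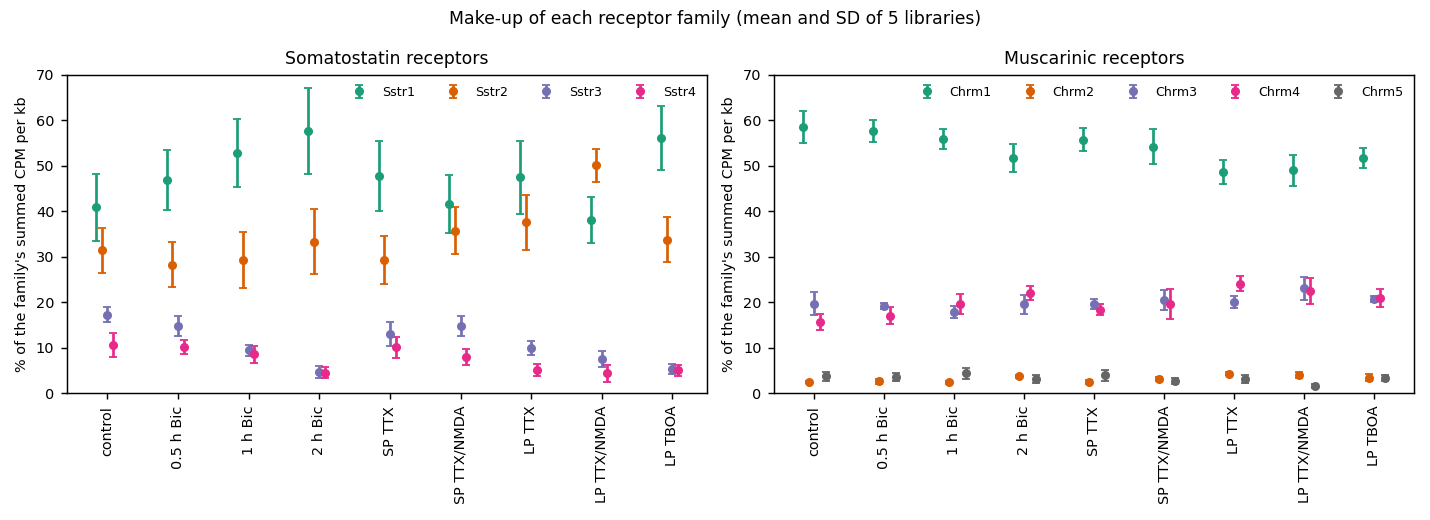
Share of each gene in its family's summed CPM per kb (percent, mean and SD of 5 libraries) in the 9 conditions; Sstr5, at most 3 reads in any library, is left out of the drawing. The mean share of Sstr1 goes from 40.8% in the control to 57.6% after 2 h Bic and 38% with LP TTX/NMDA, where Sstr2 has 50.0%. Shares with NMDA depend in part on Sstr1 and Chrm4, which were chosen for their fall with NMDA.

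Stopping AP firing with TTX while Bic stayed on asks which changes need ongoing firing. In the SP, the passive effect reached 1 receptor gene, Sstr1, as lower, against 0.252% of all genes. It had 48.1, 56.3, 45.2, 50.4 and 37.9 CPM with TTX, each below the 1 h Bic library of its preparation (log2 −0.45 ± 0.08, adjusted p = 2.97e-03). With edgeR's low-count filter (adjusted p = 0.145) and in a fit over all 45 libraries (adjusted p = 0.352) the call was lost, with the value at −0.46 and −0.45. The other alternatives kept it, down to an adjusted p of 8.78e-11.

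In the LP, Sstr1 was again lower, the 1 lower gene of 10 against 1.62% of all genes, and Sstr3 was higher, against 3.03%. Sstr1 had 86.8, 80.4, 73.5, 69.2 and 48.2 CPM with TTX against 110, 136, 124, 106 and 68.7 CPM with 2 h Bic (log2 −0.61 ± 0.12, adjusted p = 1.35e-03). Of the 5 TTX libraries 4 were above the lowest Bic library, that of preparation 8, but Sstr1 was lower in 5 of 5 preparations. Sstr3 had 36.2, 23.6, 31.2, 31 and 34.4 CPM with TTX, all above the 2 h Bic libraries (log2 0.79 ± 0.11, adjusted p = 1.10e-05). Its mean of 31.3 CPM stood beside 32.4 CPM in the controls. The mean of Sstr1 with TTX, 71.6 CPM, was about that of 1 h Bic, 64.7 CPM, when TTX was added.

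Sstr2, Chrm2 and Chrm4 kept levels near those of 2 h Bic in the LP with TTX. Sstr2 was at 58.9 CPM against 64.5 CPM (log2 −0.14 ± 0.09, adjusted p = 0.506), and with the replicate block it was called as lower (log2 −0.14, adjusted p = 0.0369, the others up to 0.728). Chrm2 was at 11.7 CPM against 9.96 CPM (log2 0.22 ± 0.09, adjusted p = 0.221), with no overlap of the groups, and with the replicate block it was called as higher (adjusted p = 0.0126, the others up to 0.496). Chrm4 was at 15.8 CPM against 14.1 CPM (log2 0.16 ± 0.09, adjusted p = 0.418). The ratios of Sstr2 to Sstr3 (log2 −0.90) and of Sstr3 to Sstr4 (log2 0.88) changed with TTX by the exact permutation test (adjusted p = 0.0346 for both), the 2 called of 16. Whether the passive effect differed between LP and SP was tested in 1 model: none of the 10 genes was called by edgeR, and Sstr3 alone had an unadjusted p-value under 0.05 (log2 difference 0.61 ± 0.17, adjusted p = 0.221). Sstr3 was called with the replicate block (log2 0.63, adjusted p = 2.83e-03) and without preparation 8 (log2 0.71, adjusted p = 0.0106), over a range of 1.37e-09 to 0.641.

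**Figure D4:**
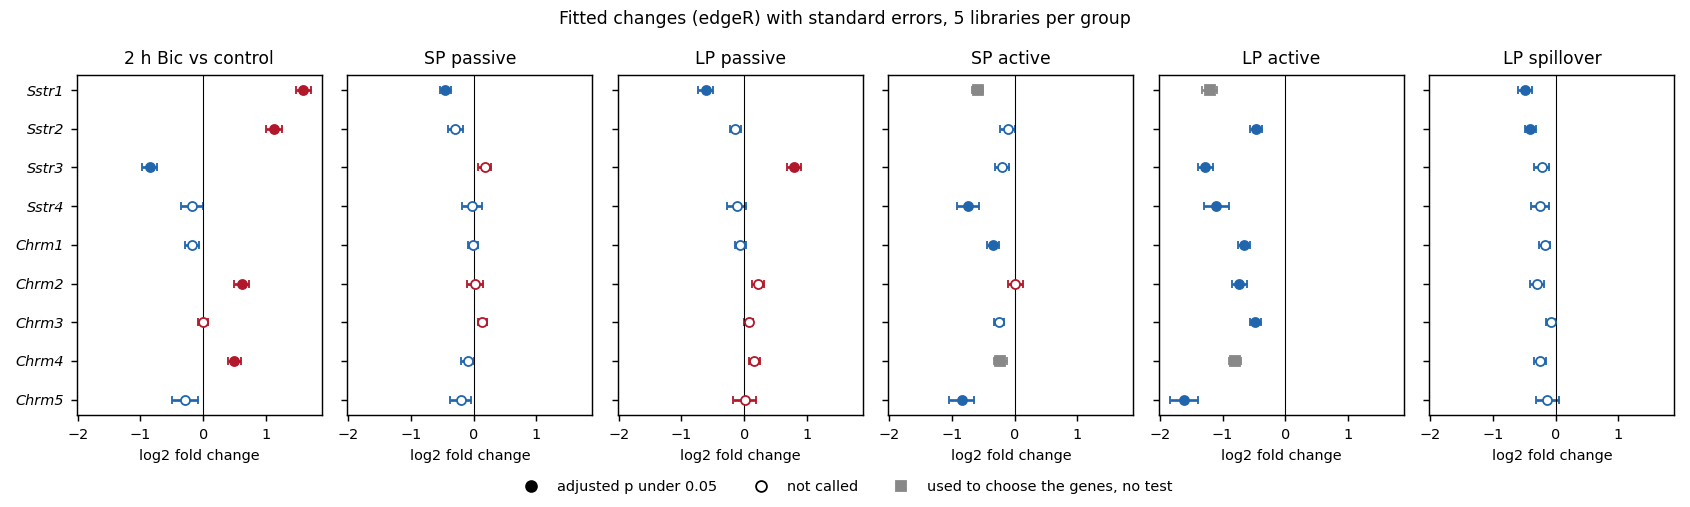
Fitted log2 fold changes (edgeR, with SE) of 9 receptor genes in 6 comparisons of 5 against 5 libraries; filled circles passed an adjusted p of 0.05, open circles did not, and grey squares mark values that took part in choosing the genes. In the LP active effect all 9 lie below 0, from −0.46 for Sstr2 to −1.62 for Chrm5.

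TBOA in the LP lets released glutamate reach receptors outside synapses while firing goes on. Sstr1 and Sstr2 were lower than with 2 h Bic, 2 of 10 genes against 0.549% of all genes, and none was higher by edgeR or DESeq2, against 0.0536%. Sstr1 had 79.9, 85.1, 76.8, 86.9 and 56.7 CPM (log2 −0.49 ± 0.11, adjusted p = 0.0180) and Sstr2 had 46.5, 44.1, 45, 47.6 and 57.2 CPM (log2 −0.41 ± 0.09, adjusted p = 0.0112). Both were lower than 2 h Bic in 5 of 5 preparations. Both calls rest on preparation 6: without it, Sstr1 was at log2 −0.44 (adjusted p = 0.0515) and Sstr2 at −0.34 (adjusted p = 0.0798). They were also lost with the low-count filter (adjusted p = 0.211 and 0.120), in the fit over 45 libraries (adjusted p = 0.0697 and 0.316), and, for Sstr1, with DESeq2 (adjusted p = 0.195). The replicate block gave 1.84e-03 and 7.14e-03. Sstr3 had 15.1 CPM with TBOA and 17.9 CPM with 2 h Bic (log2 −0.22 ± 0.12, adjusted p = 0.648), and Chrm4 had 11.7 and 14.1 CPM (log2 −0.25 ± 0.09, adjusted p = 0.377). The replicate block over all genes with a read called Sstr3 (adjusted p = 0.0424), Chrm4 (0.0194), Chrm1 (0.0311) and Chrm2 (0.0117) as lower too. With the low-count filter, the block called none of these. None of the 16 paralog ratios was called for TBOA, where the smallest permutation p was 0.0873. The LP passive and spillover comparisons share the 2 h Bic libraries.

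The values with NMDA that chose Sstr1 and Chrm4 were as follows. Sstr1 had 29.3, 37.5, 36.7, 28.8 and 24.1 CPM with LP TTX/NMDA against 86.8, 80.4, 73.5, 69.2 and 48.2 CPM with LP TTX (log2 −1.21 ± 0.12), and 34.2, 36.8, 29.5, 32.2 and 25.8 CPM with SP TTX/NMDA against 48.1, 56.3, 45.2, 50.4 and 37.9 CPM with SP TTX (log2 −0.59 ± 0.09). In both protocols every NMDA library was below every TTX library. The means with NMDA, 31.3 CPM in the LP and 31.7 CPM in the SP, stand beside 35.6 CPM in the untreated controls. Chrm4 had 9.42, 9.22, 10.3, 8.58 and 8.28 CPM with LP TTX/NMDA against 17.4, 15.5, 14.9, 14.5 and 16.5 CPM with LP TTX (log2 −0.79 ± 0.10), without overlap. In the SP it had 11.8, 10.6, 8.88, 10.9 and 9.86 CPM against 11.5, 12.8, 12.1, 10.8 and 13.3 CPM (log2 −0.23 ± 0.10), with overlap, and was lower in 3 of 5 preparations. Against 2 h Bic, the LP total change was log2 −1.82 ± 0.12 for Sstr1 and −0.63 ± 0.10 for Chrm4. Against 1 h Bic, the SP total change was −1.04 ± 0.08 and −0.31 ± 0.11.

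The paralogs fell as well. In the LP active effect, 7 of the other 8 genes were lower with NMDA, against 11.8% of the 32852 genes tested. The share was 26.9% of the 13592 genes with a mean of at least 1 CPM. These 7 calls held in all 11 alternative fits. Chrm5 fell by the most, from 1.42, 2.76, 2.69, 2.36 and 1.95 CPM with TTX to 0.506, 0.869, 0.557, 0.625 and 1.02 CPM with TTX/NMDA (log2 −1.62 ± 0.22, adjusted p = 1.46e-06). Sstr3 fell from the TTX values above to 13.4, 10.03, 12.4, 12.2 and 17 CPM (log2 −1.27 ± 0.12, adjusted p = 1.18e-09), below every TTX library. Its log2 change was of about the size of that of Sstr1.

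Sstr4 fell from 6.10, 4.59, 4.84, 4.07 and 7.36 CPM to 3.32, 2.27, 2.02, 1.21 and 3.40 CPM (log2 −1.10 ± 0.20, adjusted p = 8.92e-05). Chrm2 fell from 11.6, 11.5, 12.9, 11.3 and 11.1 CPM to 7.28, 7.42, 7.17, 4.42 and 8.86 CPM (log2 −0.73 ± 0.13, adjusted p = 4.62e-05). Chrm1 fell from 156, 123, 163, 124 and 153 CPM to 97, 76.8, 106, 71.2 and 106 CPM (log2 −0.66 ± 0.10, adjusted p = 5.24e-06). For Sstr4, Chrm2 and Chrm1 the TTX and TTX/NMDA libraries did not overlap. The smallest changes were those of Chrm3 (log2 −0.48 ± 0.09, adjusted p = 9.24e-05) and Sstr2 (log2 −0.46 ± 0.09, adjusted p = 3.39e-04), both lower in 5 of 5 preparations. Sstr2 had 35.2, 43.6, 51.0, 38.4 and 47.3 CPM with NMDA and thereby stayed above every control library but 1. Sstr5 passed the test as higher (adjusted p = 0.0489, against 11.6% of all genes) on 2, 2, 0, 2 and 2 reads with NMDA and 0, 0, 0, 0 and 1 read with TTX, which is under the floor of 3 reads. This call was made in 3 of 8 alternatives (adjusted p from 0.0278 to 0.257), DESeq2 not among them.

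Against 2 h Bic (the LP total effect), the same 7 genes were lower, against 11.1% of all genes (25.1% of those with a mean of at least 1 CPM). The log2 changes ran from −1.61 ± 0.23 for Chrm5 (adjusted p = 9.68e-07) and −1.21 ± 0.19 for Sstr4 (adjusted p = 4.33e-06) to −0.40 ± 0.08 for Chrm3 (adjusted p = 2.81e-04). Sstr3, which TTX alone had raised, was at −0.48 ± 0.12 (adjusted p = 3.39e-03). With LP TTX/NMDA the somatostatin receptors summed to 40.1 ± 4.35 CPM per kb and the muscarinic receptors to 28.6 ± 3.47 CPM per kb, against 73.5 ± 4.98 and 45.5 ± 3.69 with LP TTX. Sstr2 then held 50.0% ± 3.67 of the somatostatin receptor sum and Sstr1 38% ± 5.15. Each family sum includes a gene chosen for its fall with NMDA, Sstr1 or Chrm4. The fall of the sums and these shares are therefore a description and not independent of that choice.

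In the SP, 0.5 h of NMDA lowered 3 of the 8 paralogs, Chrm5, Sstr4 and Chrm1. The share was 3.32% of all genes and 7.81% of those with a mean of at least 1 CPM. Chrm5 went from 1.98, 3.68, 2.65, 3.31 and 2.5 CPM to 1.48, 1.88, 1.93, 0.868 and 1.69 CPM (log2 −0.85 ± 0.19, adjusted p = 5.62e-03), and without preparation 7 the call was lost (log2 −0.63, adjusted p = 0.0533). Sstr4 went from 7.36, 8.01, 5.03, 5.21 and 9.86 CPM to 5.30, 4.11, 3.75, 2.66 and 5.58 CPM (log2 −0.74 ± 0.17, adjusted p = 7.34e-03). Chrm1 went from 174, 148, 177, 147 and 183 CPM to 156, 112, 146, 102 and 142 CPM (log2 −0.34 ± 0.09, adjusted p = 0.0197). Each of these genes was lower in 5 of 5 preparations, and with the low-count filter the calls of Sstr4 (adjusted p = 0.0581) and Chrm1 (adjusted p = 0.0841) were lost, the latter also in the fit over 45 libraries (adjusted p = 0.102). Chrm3 was called with the replicate block (log2 −0.24, adjusted p = 9.05e-03, the alternatives from 1.29e-03 to 0.274). Sstr2 changed by −0.11 ± 0.11 (adjusted p = 0.607), Sstr3 by −0.21 ± 0.11 (adjusted p = 0.427) and Chrm2 by 0.01 ± 0.13 (adjusted p = 0.971).

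Against 1 h Bic (the SP total effect), 4 of 8 were lower, against 3.41% of all genes (7.75% of those with a mean of at least 1 CPM). They were Chrm5 (log2 −1.04 ± 0.20, adjusted p = 4.83e-04), Sstr4 (log2 −0.76 ± 0.17, adjusted p = 2.96e-03), Chrm1 (log2 −0.34 ± 0.09, adjusted p = 0.0133) and Sstr2 (log2 −0.40 ± 0.12, adjusted p = 0.0406). The call of Sstr2 was lost without preparation 1 (adjusted p = 0.158) and with DESeq2 (adjusted p = 0.0585), and was kept in 7 of 11 alternatives. That of Chrm1 was lost with the low-count filter (adjusted p = 0.0609) and in the fit over 45 libraries (adjusted p = 0.0966).

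The active effect differed between LP and SP for Sstr3 and Chrm2 when the difference itself was tested in 1 model over the 4 groups. These were 2 of 8 genes, against 1.85% of all genes as more negative in the LP (4.66% of those with a mean of at least 1 CPM). For Sstr3 the LP effect was lower by log2 −1.05 ± 0.19 (adjusted p = 3.76e-04). For Chrm2 it was lower by −0.73 ± 0.18 (adjusted p = 0.0217), a call that was lost without preparation 1 (adjusted p = 0.0948) or 6 (log2 −0.55, adjusted p = 0.179). The replicate block called Sstr2, Chrm1, Chrm3 and Chrm5 as well (adjusted p = 0.0157, 3.09e-03, 0.0115 and 0.0451), with log2 differences of −0.36, −0.32, −0.23 and −0.77. As a description, the difference was −0.60 ± 0.17 for Sstr1 and −0.55 ± 0.13 for Chrm4. The LP differs from the SP both in the time in Bic before NMDA and in the time with NMDA.

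Other genes moved with NMDA in these bulk libraries, in which fewer cells of a type and less RNA per cell cannot be told apart. The median log2 change in the LP active effect was 0.11 over all genes tested and −0.01 over the 13592 genes with a mean of at least 1 CPM, of which 26.9% were lower. All 5 excitatory neuron markers (Slc17a7, Slc17a6, Camk2a, Neurod6, Prox1) were lower, and their summed level ranged from 1067 to 1544 CPM with LP TTX/NMDA and from 2244 to 2737 CPM with LP TTX. All 5 astrocyte markers (Gfap, Aqp4, Aldh1l1, Slc1a3, Gja1) were higher, at 680.1 to 1419 CPM against 384 to 798 CPM. Of the 7 inhibitory neuron markers 2 were higher, all 7 with the replicate block (1702 to 2562 CPM against 1526 to 2268 CPM), and of the 5 pan-neuronal markers 2 were lower (4546 to 4884 CPM against 5450 to 5856 CPM). Of 5 oligodendrocyte lineage markers 3 were higher, at 36 to 87.1 CPM against 39.7 to 57.9 CPM, with Mog under 1 CPM in every library. The 5 microglial markers summed to at most 5.79 CPM in any library and the 4 endothelial markers to at most 6.53 CPM, with Cx3cr1, P2ry12, Aif1 and Cldn5 under 1 CPM throughout and 1 gene of each list higher (P2ry12 and Flt1). In the SP active effect, 4 of the 5 excitatory markers were lower (1489 to 1974 CPM against 2240 to 2846 CPM) 3 of the 7 inhibitory markers were higher (5 with the replicate block, 1534 to 2239.9 CPM against 1305 to 1718 CPM) and none of the astrocyte markers was called by edgeR. After 2 h Bic, 2 of all 39 markers were higher and 1 lower. With the replicate block 10 were higher, 5 of them inhibitory neuron markers, and 2 lower. With TTX or TBOA in the LP none was called by unblocked edgeR or by DESeq2 (5 and 7 at an unadjusted p under 0.05), and the replicate block called 2 higher and 5 lower with TTX and 1 lower with TBOA. The part of these shifts in the receptor results was not tested.

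The ligands and the signalling partners were followed as 8 lists of 80 genes. Like Sstr1 and Sstr2, and unlike Sstr3, Sst rose after 2 h Bic (421 ± 80.5 CPM, log2 0.52 ± 0.11, adjusted p = 7.93e-04), and so did Cort (30.9 ± 6.90 CPM, log2 0.56 ± 0.13, adjusted p = 2.35e-03). Against TTX, both peptide genes were higher with NMDA: in the LP active effect Sst went from 343 to 486 CPM (log2 0.50 ± 0.11, adjusted p = 8.97e-04) and Cort from 27.1 to 38.6 CPM (log2 0.50 ± 0.14, adjusted p = 7.49e-03). In the SP active effect Sst rose by log2 0.46 ± 0.08 (adjusted p = 2.98e-04) and Cort by 0.48 ± 0.14 (adjusted p = 0.0435). With the replicate block, only 1 gene of the ligand and cholinergic list was called as higher there. Against Bic neither was called in the unblocked fit. The total effect for Sst was 0.19 ± 0.11 in the LP (adjusted p = 0.216) and 0.21 ± 0.08 in the SP (adjusted p = 0.148). For Cort it was 0.29 ± 0.12 (adjusted p = 0.0715) and −0.06 ± 0.13 (adjusted p = 0.858). On the ligand and cholinergic list, the replicate block called 3 genes as higher and 1 as lower in the LP total effect. In the SP total effect it called 1 as higher. Ache changed by −0.05 ± 0.10 in the LP active effect (adjusted p = 0.764). In the LP total effect Ache was called as lower (−0.28 ± 0.10, adjusted p = 0.0468) and 1 other gene of the list as higher. Sst and Cort were the called genes of the 7 on the ligand and cholinergic list in the LP active effect. The list's median log2 change was 0.50, against 0.11 for all genes tested. This median rests in part on Chat, Slc18a3 and Slc5a7 (log2 1.45, 0.51 and 0.92), which were under 1 CPM in every library and not called.

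Effectors of both families were among the genes called in the LP active effect, in which 11.8% of all genes tested were lower and 11.6% higher (26.9% and 20% of the 13592 genes with a mean of at least 1 CPM). Of the 5 Gi/Go alpha subunits, 4 were lower and 1 higher (median log2 −0.25), with Gnai1 at −0.47 ± 0.07 (adjusted p = 5.55e-06), Gnaz at −0.33 ± 0.07 (adjusted p = 2.88e-04) and Gnai2 at 0.41 ± 0.11 (adjusted p = 4.06e-03). Of the 4 GIRK channel genes 2 were lower (median −0.45), Kcnj6 by −1.18 ± 0.10 (adjusted p = 2.89e-10) and Kcnj3 by −0.72 ± 0.08 (adjusted p = 1.13e-07). Among the KCNQ genes, Kcnq5 (−0.98 ± 0.08) and Kcnq3 (−0.56 ± 0.11) were lower.

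Of the 7 genes for Gq alpha subunits and phospholipase C beta, 3 were lower and 1 higher (median −0.21), with Plcb1 at −0.49 ± 0.07, Gnaq at −0.39 ± 0.07 and Plcb3 at 0.75 ± 0.16. Of the 9 adenylyl cyclases, some of which Gi proteins restrain, 4 were lower and 1 higher (median −0.16). Among the called, Adcy9 (−1.25 ± 0.08), Adcy5 (−0.56 ± 0.06) and Adcy3 (−0.45 ± 0.07) changed most. Of the 7 GRK and arrestin genes, which desensitise these receptors, 4 were lower (median −0.23), with Grk5 at −0.59 ± 0.10, Arrb1 at −0.48 ± 0.07 and Grk2 at −0.30 ± 0.06. Of 37 other amine and peptide receptors, 12 were lower and 3 higher (median −0.29). The called genes with the largest fitted changes among them were at low levels. Galr1 was at 0.249 CPM with TTX and 0.0590 CPM with TTX/NMDA. Adora2a (0.87 ± 0.28) was at 0.617 CPM with TTX, and its call was lost without preparation 7 (log2 0.61, adjusted p = 0.141). Drd4 (−1.01 ± 0.38), at 0.334 CPM with TTX, was called at an adjusted p of 0.0496 and in 5 of 9 alternative fits, and lost without preparation 1 (log2 −0.80, adjusted p = 0.200) or 7 (log2 −0.77, adjusted p = 0.249).

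Fewer partners were called without NMDA. After 2 h Bic, 7 of 79 tested list genes were higher and 2 lower, 4.24% and 4.78% being the shares over all genes, and the other receptors among them included Galr1, Npy5r (log2 −1.24 ± 0.34) and Oprl1 (−0.63 ± 0.08). Galr1 was at 0.370 CPM after 2 h Bic and 0.0331 CPM in the control, below what 3 reads give in the deepest library, and its fitted log2 change ranged from 2.22 to 4.56 when 1 preparation was left out. Npy5r lost its call without preparation 3 (log2 −0.90, adjusted p = 0.163). None of the G protein, phospholipase, adenylyl cyclase, GIRK, KCNQ or GRK and arrestin genes was called by edgeR after 2 h Bic, although the whole set of lists held 18 genes with an unadjusted p under 0.05, 14 calls by DESeq2 and, with the replicate block, 13 higher and 6 lower genes. In the LP passive effect 2 genes were lower, Adrb1 (log2 −0.77 ± 0.10, adjusted p = 3.77e-06) and Adra2a (−0.41 ± 0.08, adjusted p = 1.94e-03), with 20 of 80 at an unadjusted p under 0.05, 9 calls by DESeq2 and, with the replicate block, 9 genes higher and 19 lower. With TBOA none was called by edgeR or DESeq2 (10 at an unadjusted p under 0.05).

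The likeness of patterns is given as Pearson's r of log2 CPM (pseudocount 1) over the 45 libraries, each preparation centred on its own mean, which the 9 shared conditions and the library scaling shape. Since Sstr1 and Chrm4 were selected for low levels in the NMDA libraries, which are among the 45, their values of r are partly set by that selection. Among 13592 genes, those most like Sstr1 were Nefl (r = 0.961), Cx3cl1 (0.953) and Lrrtm1 (0.950). Nefl was at 822 CPM in the controls, 1526 CPM after 2 h Bic and 871 CPM with LP TTX/NMDA. Those most like Chrm4 were Pdgfb (0.879), Lurap1 (0.851) and Irf2bpl (0.845), with Pdgfb at 58.9, 91.0 and 48.2 CPM in the same conditions. Among the receptors themselves, Chrm1, Sstr4 and Chrm5 ran closest together (r = 0.955 for Sstr4 and Chrm1, 0.923 for Chrm1 and Chrm5 and 0.923 for Sstr4 and Chrm5). Sstr1 had r = 0.748 with Sstr2 and, through the selection in part, 0.775 with Chrm4, and Sstr2 and Sstr3 had r = −0.43.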

How the data were processed

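Poly-A RNA of 45 cultures (9 conditions, 5 preparations) was sequenced single-end. The authors aligned reads with STAR 2.5.4b to GRCm38 and counted them per gene with featureCounts 1.6.5 in its reverse-stranded mode, without multi-mapping reads, after bcl2fastq 2.20.0.422, and deposited raw counts, from 11316580 to 81129276 per library (median 26239614). Groups came from the sample titles, and the preparation numbers from the titles and the labels' culture preparation field. The members, lists and tests were chosen with earlier results of these data known.

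Each comparison was fitted on its 2 groups with edgeR 4.0.16 (R 4.3.3), quasi-likelihood test, TMM, over genes with at least 1 read and with Benjamini-Hochberg adjustment over all of them, and called at an adjusted p under 0.05. The pairwise fits, the read minimum and the threshold follow the study's methods, in which the authors used DESeq2. Alternatives were the replicate block (over genes passing filterByExpr, the value printed, and over all genes with a read), filterByExpr, RLE size factors, DESeq2 1.42.0, 1 fit over 45 libraries and leaving out each preparation. The comparison of the active effect between LP and SP was added after seeing the data. The test was also run on simulated counts, which had the same dispersion for all genes and no preparation effect, unlike these libraries.

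The labels call the numbers culture preparations, so they pair the libraries: deviations from the group means correlated with a mean r of 0.45 between libraries of the same number and −0.13 between others (lowest single pair −0.23, for TBOA and 2 h Bic), over 13592 genes with a mean of at least 1 CPM. No 2 libraries were identical. P-values of the unblocked tests measure the spread between libraries of the 5 preparations. Those of the replicate block measure the spread left after the preparation effect is removed. Of 10 receptor genes, 9 passed filterByExpr and Sstr5 did not.

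Genes named were the 10 receptors, Sst, Cort, Chat, Slc18a3, Slc5a7 and Ache, up to 3 called genes per list with the largest change in 4 comparisons (2 h Bic, LP passive, LP active, spillover) and the 3 genes most like Sstr1 and Chrm4. One list gene that this rule names is not reported here. CPM are counts per 1000000 on TMM-scaled library sizes; CPM per kb divides by exon length in GENCODE M21, a later annotation of the same build. Fold changes are edgeR's fitted values.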

Additional observations from a re-analysis of the deposited data

Results flagged for a closer look

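In 81 groups of 5 libraries (9 genes, 9 conditions) 6 held a library that stood apart by Dixon's test, which flags about 1 in 20 groups by chance. Preparation 8 was the high library in 5 of them. For Sstr2 it had 43.4 CPM with SP TTX (the others 25.5 to 29), 37.9 CPM with SP TTX/NMDA (25.2 to 28) and 57.2 CPM with LP TBOA (44.1 to 47.6). For Chrm3 it had 58.2 CPM with SP TTX/NMDA (43.2 to 47.0) and 52.4 CPM with LP TTX/NMDA (37.6 to 39). In the sixth, preparation 6 was low for Chrm4 after 0.5 h Bic, with 9.0 CPM against 11.1 to 11.6.

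The active effect of NMDA differed between LP and SP for Sstr3 (log2 −1.05, adjusted p = 3.76e-04) and Chrm2 (log2 −0.73, adjusted p = 0.0217) by the edgeR interaction test. The LP value was the more negative for both.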

How the results depend on the processing

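Of the receptor calls, those after 2 h Bic, in the LP passive and in both LP comparisons with NMDA (Sstr5 apart) held under every alternative run. The number of receptor genes called moved by over 1.5 times elsewhere. With the replicate block over filtered genes it went from 1 to 4 after 1 h Bic, from 4 to 7 between 1 and 2 h, from 2 to 4 in the LP passive, from 0 to 1 in the LP minus SP passive and from 2 to 6 in the LP minus SP active effect. With the replicate block over all genes with a read it was 1 after 0.5 h (from 0), 4 after 1 h, 7 between 1 and 2 h, 2 (from 1) in the SP passive, 5 (from 3) in the SP active, 6 (from 2) with TBOA, 1 in the passive and 5 in the active difference. filterByExpr gave 0 in the SP passive, 1 in the SP active, 2 (from 4) in the SP total and 0 with TBOA. The fit over 45 libraries gave 2 after 1 h, 0 in the SP passive, 2 in the SP total and 0 with TBOA, and DESeq2 gave 1 with TBOA. The cause of these shifts was not tested. Without 1 preparation the count ranged from 0 to 1 after 0.5 h, 1 to 3 after 1 h, 1 to 2 in the SP passive, 0 to 2 with TBOA, 0 to 1 in the passive and 1 to 2 in the active difference. The 11 paralog ratios called fell to 0 in the replicate block (sign-flip) test and to 0 without any 1 preparation, sizes at which the smallest possible p leaves no call after adjustment; pseudocounts of 0.5 and 5 gave 11.

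Signs turned only for uncalled log2 changes. Not all of these were near 0, as Chrm5 at 1 h Bic was at 0.24 ± 0.20 in the unblocked fit. With the replicate block over filtered genes and over all genes, Chrm1 was 0.017 and 0.0049 at 0.5 h (from −0.014) and 0.0043 and 0.0010 at 1 h (from −0.018). Chrm3 at 0.5 h (from just below 0) was 0.012 with the block, 0.011 with filterByExpr, 0.013 with RLE and with DESeq2 and 0.0011 in the fit over 45 libraries. Chrm5 in the LP passive was −0.0021 with filterByExpr and −0.0015 with RLE. Without 1 preparation, the ranges that crossed 0 were, at 0.5 h, −0.11 to 0.16 for Sstr4, −0.081 to 0.043 for Chrm1, −0.015 to 0.027 for Chrm3 and −0.38 to 0.080 for Chrm5. At 1 h they were −0.088 to 0.021 for Chrm1, −0.037 to 0.12 for Chrm2 and −0.013 to 0.34 for Chrm5, and at 2 h −0.026 to 0.020 for Chrm3. They were −0.080 to 0.030 for Sstr4, −0.043 to 0.014 for Chrm1 and −0.043 to 0.11 for Chrm2 in the SP passive, −0.14 to 0.10 for Chrm2 in the SP active, −0.074 to 0.018 for Sstr3 and −0.045 to 0.12 for Chrm2 in the SP total, −0.047 to 0.11 for Chrm5 in the LP passive and −0.25 to 0.045 for Chrm5 with TBOA.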
